A study of Macaca mulatta with 12 samples.

Results

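This account concerns 35 genes that mark microglia, the resident immune cells of the brain, or belong to the complement system, as measured layer by layer in the visual thalamus of rhesus macaques with 1 eye deprived. The members were the probe sets of the array whose only gene symbol was one of the 35, which gave 49 of 22283 probe sets and 33 genes of the 11963 named on the array. C4A and CD68 had only probe sets shared with other gene names and are not reported. Where a gene had several probe sets, the one of highest mean stood for it.

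The lateral geniculate nucleus is the thalamic relay between retina and visual cortex, and each of its 6 layers receives input from a single eye. Layers 1 and 2 are magnocellular and layers 3 to 6 parvocellular. Total RNA of each layer was hybridised once from the ipsilateral and once from the contralateral nucleus, 12 arrays in all. Per the labels, the ipsilateral layers 2, 3 and 5 and the contralateral layers 1, 4 and 6 were deprived (6 arrays), and the ipsilateral layers 1, 4 and 6 and the contralateral layers 2, 3 and 5 were non-deprived (6 arrays). No array was labelled as coming from an animal without deprivation. The sources used here do not give the number of animals, their age, how and how long the eye was deprived, or which samples shared an animal. The p-values therefore measure the spread between these layer samples, which may be partly technical, and are too small as statements about animals where samples shared one.

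Microglia survey neural tissue and take up debris and synapses. CX3CR1, the receptor for the neuronal chemokine fractalkine, and CSF1R, the receptor that microglia need to survive, are among their defining genes. In the complement system C1q, built from the products of C1QA, C1QB and C1QC, starts a cascade that deposits fragments of C3 on surfaces, and microglia recognise these through the integrin formed by ITGAM and ITGB2. The adaptors TYROBP and FCER1G carry immunoreceptor tyrosine-based motifs that recruit the kinase SYK once TREM2 or Fc receptors are engaged. In the developing mouse visual thalamus this machinery is known to take part in the removal of retinal inputs.

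The deposited values were intensities on a linear scale, scaled by the authors so that all arrays had nearly the same trimmed mean. Human probes were used on macaque RNA, so a dim probe set may reflect a mismatch of sequence as well as a low transcript level. Values are therefore compared between arrays within a probe set. The exception is the sums of cell markers, which add different probe sets, so that the brightest weigh most. The array medians ranged from 411.2 to 666.2 with means of 586 ± 83.3 in ipsilateral and 467 ± 39.7 in contralateral samples (SD, 6 arrays each; exact permutation test, two-sided, p = 0.0195, adjusted p = 0.0877 over 9 comparisons of array measures). The ratio of 3' to 5' probe sets of GAPDH, a measure of RNA quality that increases with degradation, was 9.38 on the deprived ipsilateral layer 2 and 11 on the deprived ipsilateral layer 5, against 2.21 to 5.65 on the other arrays. The deprived ipsilateral layer 2 also had the lowest mean correlation with the other arrays, 0.89 against 0.921 to 0.948. All 7 measured neuron markers and all 5 measured oligodendrocyte markers were above the filter on low values. In tissue pieces, fewer microglia and less RNA per cell cannot be told apart.

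Many of the genes carried little signal. The tests took probe sets whose mean log2 intensity over the 12 arrays was at or above the median of all probe sets (an intensity of 483.4), and 18 of the 33 genes passed. Another 8 were near the floor, meaning below that filter: AIF1, C1QB, CD14, CD86, CD163, FCGR2A, PTPRC and TLR2. A further 7 were at the floor, with at least 6 of 12 values at or below the pooled 20th percentile (110.8): C1QA, C3AR1, FCGR1A, HLA-DRA, ITGAX, SPI1 and TREM2. The label of the gene set was therefore borne out by part of its markers. CX3CR1 and CTSS were above the filter on average, AIF1 was not, and TREM2 and the transcription factor SPI1, both defining genes, were at the floor.

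**Figure D1:**
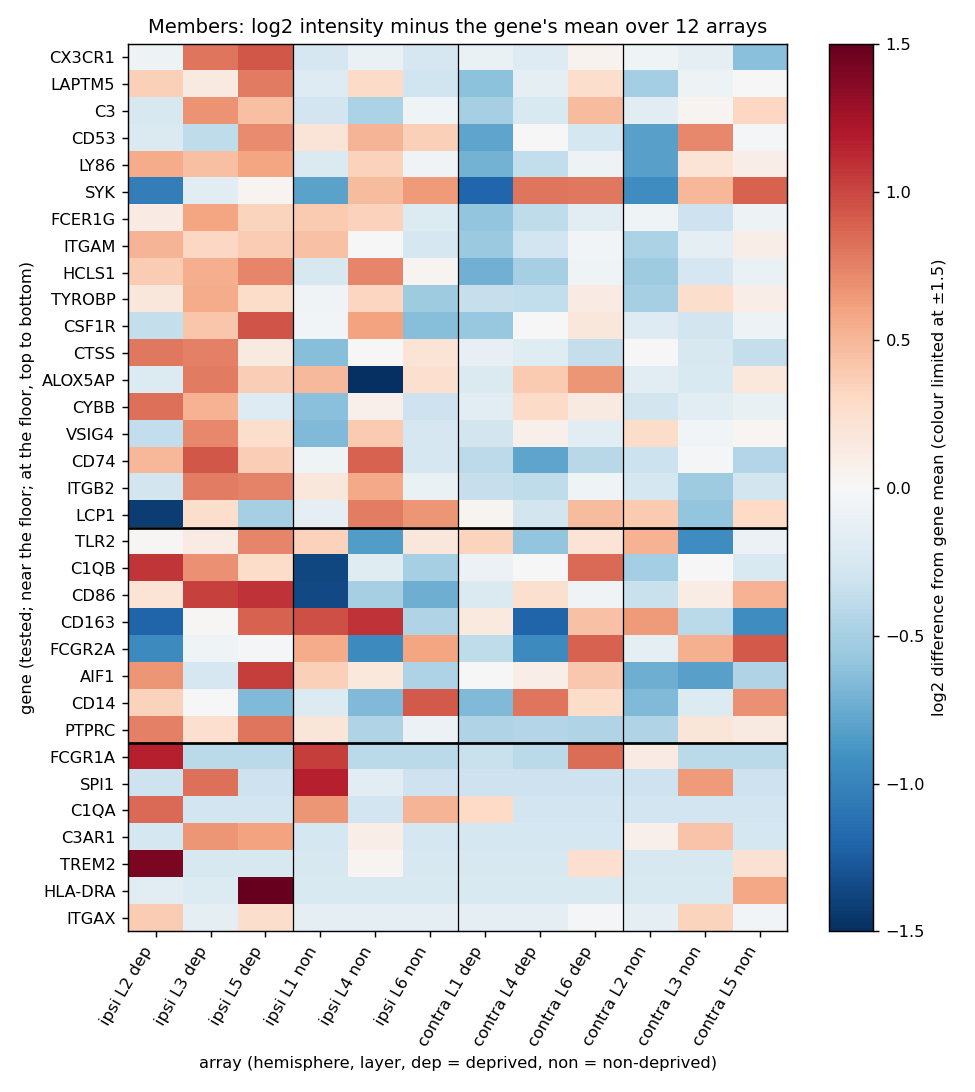
Heat map of 33 genes (rows) on 12 arrays (columns, by hemisphere, deprivation and layer), showing log2 intensity minus the gene's own mean over the arrays, with values below 110.8 raised to it. The 18 tested genes stand above the first line, the 8 near the floor between the lines and the 7 at the floor at the bottom; the deprived ipsilateral layers 3 and 5 are red for most tested genes, and SYK differs from its neighbours.

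CX3CR1 was high on 2 of the 12 arrays. It was 9146 and 9968 in the deprived ipsilateral layers 3 and 5, and 4964 in the deprived ipsilateral layer 2. The deprived contralateral layers 1, 4 and 6 had 4911, 4584 and 5432. The non-deprived samples had 4403, 4905 and 4415 in ipsilateral layers 1, 4 and 6, and 5022, 4797 and 3410 in contralateral layers 2, 3 and 5. Both high arrays were deprived, ipsilateral and parvocellular. Of the other 4 deprived samples, contralateral layer 6 (5432) was also above every non-deprived one (up to 5022), and the rest lay within the non-deprived range. Of the 2 high arrays, layer 5 was the array with the highest GAPDH ratio, and layer 3 had a ratio of 2.87, within the range of the remaining arrays.

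CTSS encodes cathepsin S, a lysosomal protease that trims the invariant chain of MHC class II. Its deprived samples had 1319, 1291 and 841.7 ipsilaterally in layers 2, 3 and 5, and 703.9, 671.7 and 595.1 contralaterally in layers 1, 4 and 6. Its non-deprived samples had 491.4, 760.9 and 882.3 in ipsilateral layers 1, 4 and 6, and 769.6, 646.7 and 597.3 in contralateral layers 2, 3 and 5. The highest 2 values were again deprived and ipsilateral, but one of them was magnocellular layer 2. AIF1 encodes IBA1, the usual histological marker of microglia, and lay near the floor with 307.5, 163 and 399 in the deprived ipsilateral layers 2, 3 and 5 and 194.2, 208.6 and 258.3 in the deprived contralateral layers 1, 4 and 6. In non-deprived samples AIF1 had 249.7, 216.4 and 141 in ipsilateral layers 1, 4 and 6 and 117.6, 93.6 and 142.4 in contralateral layers 2, 3 and 5. The 2 groups of AIF1 overlapped.

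**Figure D2:**
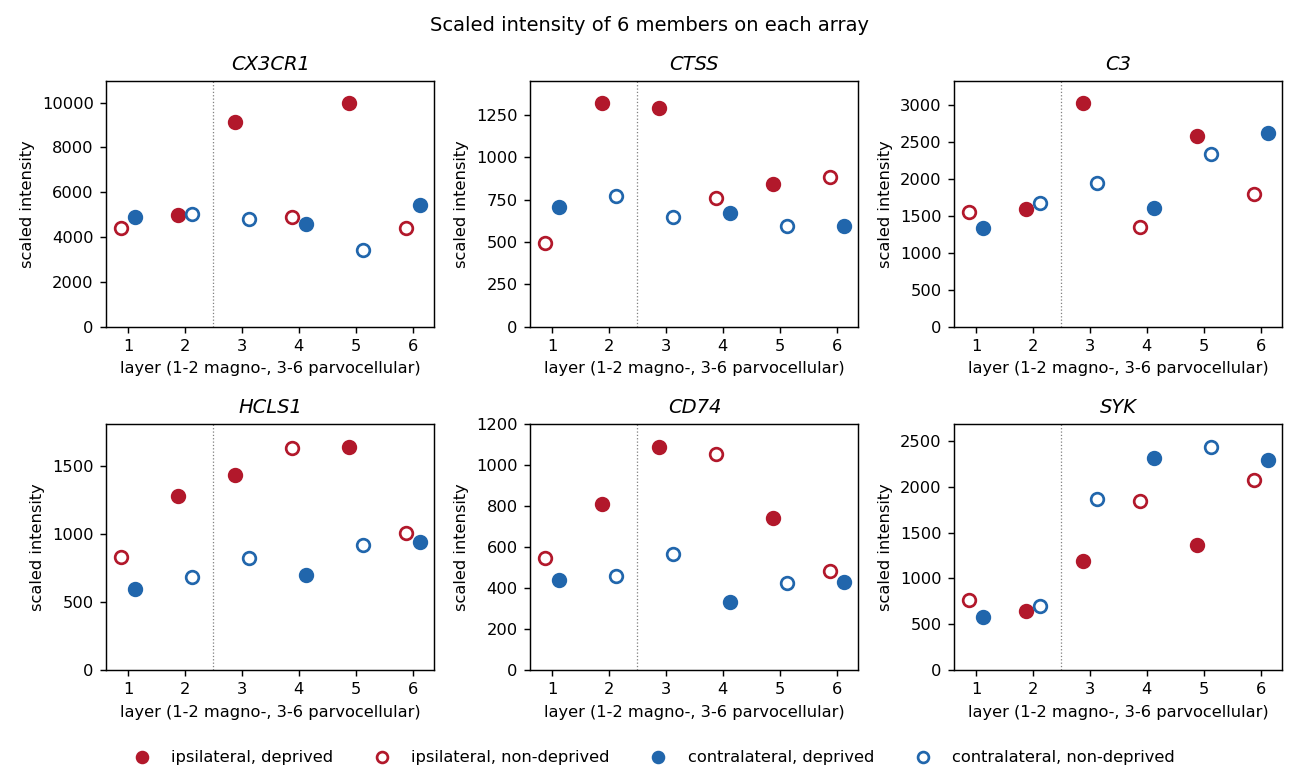
Scaled intensity (vertical axis, from 0) of CX3CR1, CTSS, C3, HCLS1, CD74 and SYK by layer (horizontal axis), 1 point per array, red for ipsilateral, blue for contralateral, filled for deprived and open for non-deprived. CX3CR1 stands apart in the deprived ipsilateral layers 3 and 5 (9146 and 9968), and SYK lies between 580.4 and 760.9 in layers 1 and 2 and between 1188 and 2444 in layers 3 to 6.

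The first comparison set deprived against non-deprived layers. Neither a rise nor a fall of any microglia or complement gene passed. Of the 18 tested genes 0 had an adjusted p under 0.05 by limma, where 0.063% of all 11105 probe sets did, and 1 (CX3CR1, higher) had an unadjusted p under 0.05, where 12% of all did and 5.93% were higher. The log2 changes of 14 of the 18 were positive, with a median of 0.14 against 0.03 over all probe sets tested, of which 53.7% were positive. Without the non-deprived layer 6 the median was 0.02, with the deprived ipsilateral layers 2 and 5 left out 0.06, and after each array was centred on its median 0.00 (against -0.11 over all probe sets).

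CX3CR1 had a mean of 6501 ± 2397 in deprived and 4492 ± 588.2 in non-deprived samples (SD, n = 6 each), a log2 change of 0.47 ± 0.19 (SE) with limma adjusted p = 0.34, and was higher in the deprived sample in 4 of 6 layers. CYBB, the catalytic subunit of the phagocyte NADPH oxidase, had 797.8 ± 226 and 563.2 ± 90.2, a log2 change of 0.47 ± 0.24 (adjusted p = 0.448, 5 of 6 layers), and 0.30 without the deprived ipsilateral layer 2. Its 6 deprived samples were 1164, 944.1 and 574.7 in ipsilateral layers 2, 3 and 5 and 588.2, 798 and 718 in contralateral layers 1, 4 and 6. The non-deprived ones of CYBB were 423.7, 694.4 and 528.6 in ipsilateral layers 1, 4 and 6 and 541.7, 584.7 and 606.4 in contralateral layers 2, 3 and 5. The deprived samples of CYBB reached higher, but their lower part overlapped with the non-deprived group. The other probe sets of CYBB lay near the floor and had changes of 0.23 and 0.12 in the fit without a filter.

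ALOX5AP, which presents arachidonic acid to 5-lipoxygenase in leukotriene synthesis, had a log2 change of 0.59 ± 0.38 (adjusted p = 0.582). Its value on the non-deprived ipsilateral layer 4 was 158.4, against 650.7 to 1305 on the other 11 arrays, and without that array the change was 0.14. In ipsilateral layers ALOX5AP had 658.3, 1305 and 980 in deprived layers 2, 3 and 5 and 1068, 158.4 and 906.6 in non-deprived layers 1, 4 and 6. Contralaterally it had 654.3, 998.9 and 1204 in deprived layers 1, 4 and 6 and 679.6, 650.7 and 847 in non-deprived layers 2, 3 and 5. The difference between the groups thus rested largely on 1 array. CTSS had a log2 change of 0.34 ± 0.23 (adjusted p = 0.607), and 0.14 without the non-deprived ipsilateral layer 1. Of the other tested genes, CD53 (-0.31 ± 0.21), LCP1 (-0.47 ± 0.33), SYK (-0.25 ± 0.18) and FCER1G (-0.03 ± 0.19) had negative changes, and none of these passed.

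By role, all 4 tested receptors and adaptors other than FCER1G, both integrin chains and both enzymes had positive changes with deprivation, as did 1 of 3 tested signalling and cytoskeletal genes. The complement genes were described over all their values, although only C3 passed the filter. C3, the central component, had 1597, 3020 and 2584 in the deprived ipsilateral layers 2, 3 and 5 and 1337, 1610 and 2625 in the deprived contralateral layers 1, 4 and 6. In non-deprived samples C3 had 1549, 1353 and 1799 in ipsilateral layers 1, 4 and 6 and 1675, 1946 and 2340 in contralateral layers 2, 3 and 5, a deprivation change of 0.22 ± 0.20 (adjusted p = 0.724). The highest 3 values were deprived and parvocellular and the lowest value was a deprived magnocellular one.

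C1QB, a chain of C1q, had 655.1, 504.6 and 377.3 in the deprived ipsilateral layers 2, 3 and 5 and 295, 310.1 and 565.3 in the deprived contralateral layers 1, 4 and 6. Its non-deprived samples had 121.1, 275.3 and 221.4 in ipsilateral layers 1, 4 and 6 and 218.9, 311.2 and 267.4 in contralateral layers 2, 3 and 5. Only the non-deprived contralateral layer 3 reached into the deprived range. C1QB lay near the floor, and its highest value was on the deprived ipsilateral layer 2. On that array 6.25% of all values were at or below 110.8, against 16.5% to 24.7% on the other arrays. The part of this in the values of C1QB was not tested. In the fit without a filter the change of C1QB was 0.93 ± 0.29, with an adjusted p of 0.423, so it did not pass.

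C1QA, another C1q chain, was at the floor, with values above 110.8 on 4 arrays (244.2 in the deprived ipsilateral layer 2, 214.4 and 192.6 in the non-deprived ipsilateral layers 1 and 6, and 167.2 in the deprived contralateral layer 1) and 27.7 to 64.7 on the rest. C3AR1, the receptor for the C3a fragment, was above 110.8 in the deprived ipsilateral layers 3 and 5 (211.4 and 203.2), the non-deprived ipsilateral layer 4 (142.5) and the non-deprived contralateral layers 2 and 3 (140.3 and 179.4). Its remaining values were 43 to 97.4. With so many values at the floor, neither gene gave an order of the deprived and non-deprived groups.

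AIF1 and the costimulatory molecule CD86 also had positive changes without the filter (0.65 ± 0.24 and 0.76 ± 0.32, adjusted p = 0.487 and 0.546). The 3 other probe sets of AIF1 had 0.84, 0.39 and 0.29 and those of CD86 0.20 and 0.07, and none passed. A second probe set of ITGAM, the alpha chain of complement receptor 3, had a change of 0.94 ± 0.27 (adjusted p = 0.19), while the probe set of higher mean had 0.10 ± 0.20. CD86 and the second probe set of ITGAM were singled out after their values were seen.

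Among other complement genes, other microglia and myeloid genes, and signals to microglia and cytokines, no change with deprivation passed either. These lists are not confined to genes of microglia. Of 31 other complement genes with a probe set 12 were tested, 5 with a positive change (median -0.08), and C1QBP, a mitochondrial protein that can bind C1q, had the smallest p (-0.44 ± 0.16, adjusted p = 0.283). Of 55 other microglia and myeloid genes 25 were tested, 18 positive (median 0.13), led by RGS10 (0.51, adjusted p = 0.393). Of 23 signals to microglia and cytokines 13 were tested, 7 positive (median 0.03), led by GAS6 (-0.28, adjusted p = 0.488). At an unadjusted p under 0.05, 0 genes were higher and 2 lower in the first list, 1 higher and 1 lower in the second, and 0 either way in the third. Markers of other glia were positive in the same layers, with 5 of 5 tested oligodendrocyte genes (median 0.37) and 5 of 5 tested astrocyte genes (median 0.44) above 0, while 6 of 7 neuron genes were negative (median -0.18). Their part in the member values was not tested.

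The second comparison set the hemispheres against each other, ipsilateral minus contralateral. Again 0 of the 18 tested members had an adjusted p under 0.05 by limma (0.108% of all probe sets did). At an unadjusted p under 0.05, 6 were higher ipsilaterally, which is 33.3% of the tested members where 13% of all probe sets were, and 0 were lower, where 7.13% were. The 6 were HCLS1, CD74, LY86, FCER1G, ITGB2 and ITGAM.

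HCLS1, a cortactin-like actin regulator of haematopoietic cells, had 1280, 1436 and 1645 in the deprived ipsilateral layers 2, 3 and 5 and 832.7, 1636 and 1011 in the non-deprived ipsilateral layers 1, 4 and 6. Contralaterally it had 598.5, 697.4 and 939.9 in deprived layers 1, 4 and 6 and 682.6, 827.5 and 919.5 in non-deprived layers 2, 3 and 5. It was higher ipsilaterally in 6 of 6 layers, although ipsilateral layer 1 overlapped with the contralateral group, and its log2 change was 0.73 ± 0.19 (adjusted p = 0.108).

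CD74, the invariant chain of MHC class II, had 808.7, 1091 and 742 in the deprived ipsilateral layers 2, 3 and 5 and 548.2, 1055 and 482 in the non-deprived ipsilateral layers 1, 4 and 6. In contralateral samples CD74 had 437.2, 331.7 and 428.5 in deprived layers 1, 4 and 6 and 456.1, 564.2 and 422 in non-deprived layers 2, 3 and 5. The mean of CD74 was 787.9 ± 251.8 ipsilaterally and 440 ± 74.7 contralaterally (SD, n = 6 each), a change of 0.79 ± 0.27 (adjusted p = 0.137, 6 of 6 layers).

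LY86, which encodes MD-1, the partner of the toll-like receptor homologue RP105, had 2105, 1950 and 2147 in the deprived ipsilateral layers 2, 3 and 5, 1230, 1812 and 1383 in the non-deprived ipsilateral layers 1, 4 and 6, 876.5, 1106 and 1356 in the deprived contralateral layers 1, 4 and 6, and 815.5, 1644 and 1526 in the non-deprived contralateral layers 2, 3 and 5. The 3 highest values were the deprived ipsilateral ones, and its hemisphere change was 0.56 ± 0.19 (adjusted p = 0.148, 6 of 6 layers). The Fc receptor adaptor FCER1G had 1273 ± 224.8 ipsilaterally and 876.6 ± 118.4 contralaterally (0.53 ± 0.19, adjusted p = 0.149). The integrin chains ITGB2 and ITGAM had changes of 0.63 ± 0.25 and 0.47 ± 0.20 (adjusted p = 0.185 and 0.204). TYROBP, the adaptor of TREM2, had 0.25 ± 0.21, CSF1R 0.31 ± 0.24, LAPTM5, a lysosomal protein of blood cells, 0.36 ± 0.18 and CX3CR1 0.35 ± 0.19, and none passed. Without the non-deprived ipsilateral layer 6, 3 of the 18 members passed as higher, HCLS1 (adjusted p = 0.0268), FCER1G (0.039) and CD74 (0.042), and in that same fit 4.54% of all probe sets passed as higher.

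**Figure D3:**
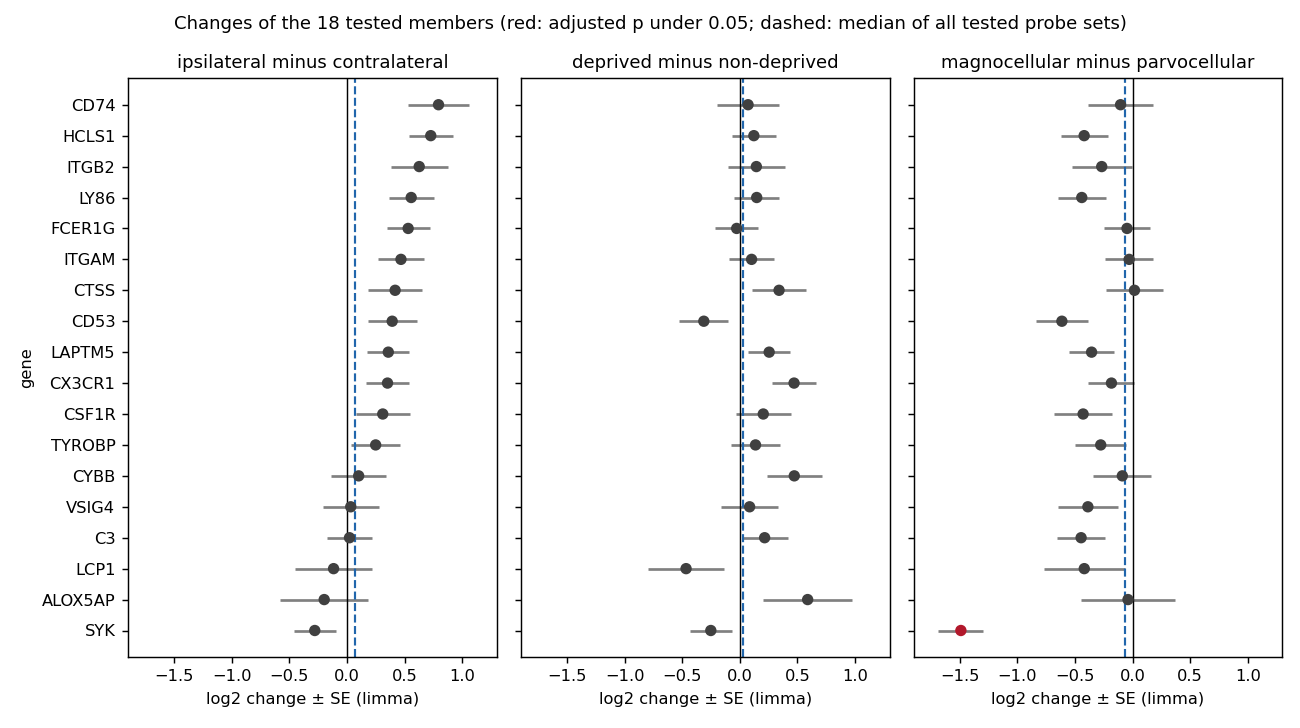
Log2 change with its standard error (horizontal axes, limma) of the 18 tested genes (rows, ordered by hemisphere change) for ipsilateral minus contralateral, deprived minus non-deprived and magnocellular minus parvocellular, with the median of all tested probe sets dashed (0.07, 0.03 and -0.07). The one change with an adjusted p under 0.05, drawn in red, is that of SYK with cell class, -1.49.

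Over the 18 members 15 changes were positive with a median of 0.35, and over all 11105 probe sets 57.9% were positive with a median of 0.07. When the tested probe sets were split into 3 groups of equal size by mean intensity, in the lowest group the median ipsilateral difference was 0.27 over all 3702 and 0.20 over the 8 members among them. In the middle group it was 0.10 over all 3701 and 0.43 over 8 members, and in the highest group -0.09 over all 3702 and 0.35 over the 2 members CX3CR1 and LAPTM5. Centring each array on its median moved the hemisphere median of all probe sets to -0.25 and that of the members to 0.04, with 10 of 18 positive, while HCLS1, CD74, LY86, FCER1G, ITGB2 and ITGAM stayed above 0 (0.15 to 0.48). By construction the members' median stayed 0.29 above that of all probe sets. Quantile normalization gave 0.22 for the members and -0.01 for all.

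Markers of blood cells and of border macrophages were summed per array, and none of those tested had an adjusted p under 0.05 with hemisphere. No tested macrophage, monocyte or red cell marker had an unadjusted p under 0.05. Of 8 T and natural killer cell markers 3 were above the filter. These 3 were all higher ipsilaterally at an unadjusted p under 0.05 by limma (0.63 to 0.98), where 13% of all probe sets were. The summed intensity of the 8 was 2807 to 5574 ipsilaterally and 1895 to 2776 contralaterally, which do not overlap. In the fit without a filter 7 of the 8 changes were positive. In that fit 7820 of 11956 genes on the array were positive (1 probe set per gene, after old symbols were updated). NKG7 was at or below 110.8 on 12 of 12 arrays and so had no change. The sum of 8 border macrophage and monocyte markers, 2 of them above the filter, was 3166 to 6283 against 2979 to 3898, which overlap. S100A9 and LYZ were at or below 110.8 on 8 arrays each. The sum of 3 red cell markers was 4002 to 13974 against 2858 to 6473, which also overlap, with ALAS2 at or below 110.8 on 11 arrays. CD163, shared by the members and the macrophage list, was near the floor. The part of these cells and of the array medians in the member values was not tested.

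The lists of other complement, myeloid and signal genes gave 0 hemisphere calls. Of the 12 tested other complement genes 9 were positive (median 0.40), 4 higher and 2 lower at an unadjusted p under 0.05, with C1QBP at -0.61 ± 0.16 (adjusted p = 0.108). Of the 25 tested myeloid genes 21 were positive (median 0.31), 5 higher and 2 lower at that level, and the lysosomal protease CTSB had -0.90 ± 0.22 (adjusted p = 0.0945). Of the 13 tested signals 10 were positive (median 0.26), 2 higher and 0 lower, with CASP1, the inflammatory caspase, at 0.83 ± 0.22 (adjusted p = 0.108).

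The third comparison set magnocellular against parvocellular layers. SYK, the kinase that ITAM-bearing adaptors recruit, was the one member that passed, and it fell in magnocellular layers. It had 760.9 and 580.4 in layer 1 (ipsilateral and contralateral) and 646.6 and 694.2 in layer 2. In parvocellular layers 3, 4, 5 and 6 SYK had 1188, 1846, 1369 and 2075 ipsilaterally and 1874, 2317, 2444 and 2299 contralaterally. The groups did not overlap, which held for 0.946% of all probe sets in this direction. The means of SYK were 670.5 ± 76.2 (SD, n = 4) and 1926 ± 454.9 (n = 8), a log2 change of -1.49 ± 0.20 (limma adjusted p = 0.00148), so the magnocellular level was 0.356 times the parvocellular one. Of the 18 tested members 0 were higher and 1 lower at this threshold, where 0.297% and 0.423% of all probe sets were. SYK also passed without each single array (-1.58 to -1.40, adjusted p up to 0.0182) and in contralateral samples alone (-1.81), but not in the 6 ipsilateral samples alone (-1.17 ± 0.33, adjusted p = 0.814). Its second probe set was near the floor, with a change of -0.08 in the fit without a filter.

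By the probe sets tested, the other members did not share the size of this fall. A second probe set of LAPTM5, near the floor, had -1.37 ± 0.59 in the fit without a filter (limma adjusted p = 0.469). The tested probe set of LAPTM5 had -0.36 ± 0.19. CD53, a leukocyte tetraspanin, had 1941, 982.6, 1462 and 963.1 in magnocellular layers (ipsilateral and contralateral layer 1, then layer 2). In parvocellular layers 3, 4, 5 and 6 CD53 had 1309, 2424, 2775 and 2176 ipsilaterally and 2809, 1707, 1668 and 1413 contralaterally, a change of -0.61 ± 0.22 (adjusted p = 0.228). LY86 had 1257 ± 594.3 and 1616 ± 342.7 (-0.44 ± 0.21, adjusted p = 0.333), and C3 had 1540 ± 144.5 and 2160 ± 572.9 (-0.45 ± 0.21, adjusted p = 0.342). In all 3 genes the groups overlapped. CX3CR1 had 4825 ± 285 in magnocellular and 5832 ± 2379 in parvocellular layers (-0.18 ± 0.20), where the 2 high arrays made the parvocellular spread the larger. CTSS had 0.02 ± 0.25.

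Of the 18 tested members 17 had a negative cell class change, with a median of -0.32 against -0.07 over all probe sets, of which 41.5% were positive. At an unadjusted p under 0.05, 4 members were lower (SYK, CD53, LY86 and C3), which is 22.2% where 9.35% of all probe sets were lower, and 0 were higher, where 5.24% were. For ACTB the ratio of 3' to 5' probe sets was 46.4 ± 15.1 in magnocellular and 25.7 ± 8.78 in parvocellular samples (SD, n = 4 and 8; two-sided exact permutation p = 0.0162, adjusted p = 0.0877 over the same 9 comparisons). With that ratio as a covariate the median of the members was -0.10, with 10 of 18 negative, and SYK passed at -1.91 ± 0.31 (adjusted p = 0.0427). Over the 33 genes without a filter 9 changes were positive and the median was -0.27. The positive ones included C1QA (0.57 ± 0.19, limma adjusted p = 0.35) and FCGR1A (0.75 ± 0.33, adjusted p = 0.487), both at the floor, and neither passed.

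The myelin genes MAG (-1.26 ± 0.23, adjusted p = 0.018) and MBP (-0.64 ± 0.13, adjusted p = 0.0334) also fell in magnocellular layers, and 4 of 5 tested oligodendrocyte markers had negative changes. The neurofilament gene NEFM rose (0.83 ± 0.12, limma adjusted p = 0.00295). Of the 7 neuron markers tested 5 had positive and 2 negative changes (-1.19 to 0.83). At an unadjusted p under 0.05, 4 of them were higher and 1 lower, where 5.24% and 9.35% of all probe sets were. The part of these marker differences in the member values was not tested. SPP1, which encodes osteopontin, was the 1 gene of the complement, myeloid and signal lists to pass, higher in magnocellular layers (0.78 ± 0.17, limma adjusted p = 0.0398). Its values were 13512 to 23116 in layers 1 and 2 and 5228 to 12702 in layers 3 to 6. Of the 25 tested myeloid genes 8 were positive (median -0.06). Of the other complement genes 3 of 12 were positive (median -0.18), with the membrane inhibitor CD59 at 0.50 ± 0.17 (adjusted p = 0.202), and of the signals 4 of 13 (median -0.13), with CD47, a signal that inhibits phagocytosis, at 0.44 (adjusted p = 0.254). At an unadjusted p under 0.05, 1 higher and 0 lower were found among complement genes, 1 and 1 among myeloid genes, and 2 and 0 among signals.

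Whether the deprivation difference itself differed between hemispheres was tested with an interaction term, which in this design is the same contrast as layers 2, 3 and 5 against layers 1, 4 and 6. By limma 0 of the 18 members passed and 0 had an unadjusted p under 0.05 (0% and 6.57% of all probe sets). The interaction was positive in 15 of 18, with a median of 0.46 against 0.05 over all, of which 54.7% were positive. The smallest p were those of LY86 (0.72 ± 0.35, adjusted p = 0.785), C3 (0.72 ± 0.37, adjusted p = 0.786) and CTSS (0.73 ± 0.44, adjusted p = 0.83), which had 0.40 without the non-deprived ipsilateral layer 1. Fitted within the ipsilateral samples, the median deprivation change of the members was 0.40 with 15 of 18 positive, and within the contralateral samples -0.08 with 7 of 18 positive. Layer by layer, deprived minus non-deprived had a median of 0.40, 0.73 and 0.45 in layers 2, 3 and 5 (ipsilateral minus contralateral) and of -0.41, -0.47 and 0.12 in layers 1, 4 and 6 (contralateral minus ipsilateral). Each of these layer differences also holds the hemisphere difference.

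The deprivation difference was likewise not shown to differ between cell classes. By limma 0 of 18 members passed and 0 had an unadjusted p under 0.05 (0% and 8.73% of all), and 8 of 18 interactions were positive, where 46.2% of all were. ALOX5AP (-1.45 ± 0.75, adjusted p = 0.616), CSF1R (-0.82 ± 0.47, adjusted p = 0.642) and CX3CR1 (-0.60 ± 0.38, adjusted p = 0.669) had the smallest p. Without the non-deprived ipsilateral layer 4 that of ALOX5AP was -0.83. That of CX3CR1 was -0.28 without the non-deprived contralateral layer 2 and -0.92 without the non-deprived ipsilateral layer 1. CSF1R had 729.6, 1242 and 1786 in the deprived ipsilateral layers 2, 3 and 5, 907.3, 1416 and 600.5 in the non-deprived ipsilateral layers 1, 4 and 6, 631.1, 933.4 and 1050 in the deprived contralateral layers 1, 4 and 6, and 817.5, 771.6 and 883.7 in the non-deprived contralateral layers 2, 3 and 5. Its highest value was that of the array with the highest GAPDH ratio, and its 4 magnocellular values spanned only 631.1 to 907.3.

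As one number per array, a module score was taken as the mean over the 33 genes of log2 intensity minus the gene's own mean. It is a description without a test, since the genes were chosen with results of these data known. The score was 0.12, 0.32 and 0.38 in the deprived ipsilateral layers 2, 3 and 5, and -0.03, 0.00 and -0.08 in the non-deprived ipsilateral layers 1, 4 and 6. It was -0.32, -0.20 and 0.12 in the deprived contralateral layers 1, 4 and 6, and -0.24, -0.08 and -0.00 in the non-deprived contralateral layers 2, 3 and 5. The non-deprived scores lay between -0.24 and 0.00, and the deprived scores covered both the lowest and the highest of all arrays. Over the 18 tested genes alone the non-deprived scores lay between -0.30 and 0.19, and the deprived ones between -0.45 and 0.48. The non-deprived ipsilateral layer 4 then had 0.19 and the deprived ipsilateral layer 2 had 0.00. After median centring of the score of 33 genes, the deprived ipsilateral layer 2 and the non-deprived ipsilateral layer 4 had the lowest scores (-0.24 and -0.29). The deprived ipsilateral layer 3 (0.12) and the non-deprived contralateral layer 5 (0.19) then had the highest.

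**Figure D4:**
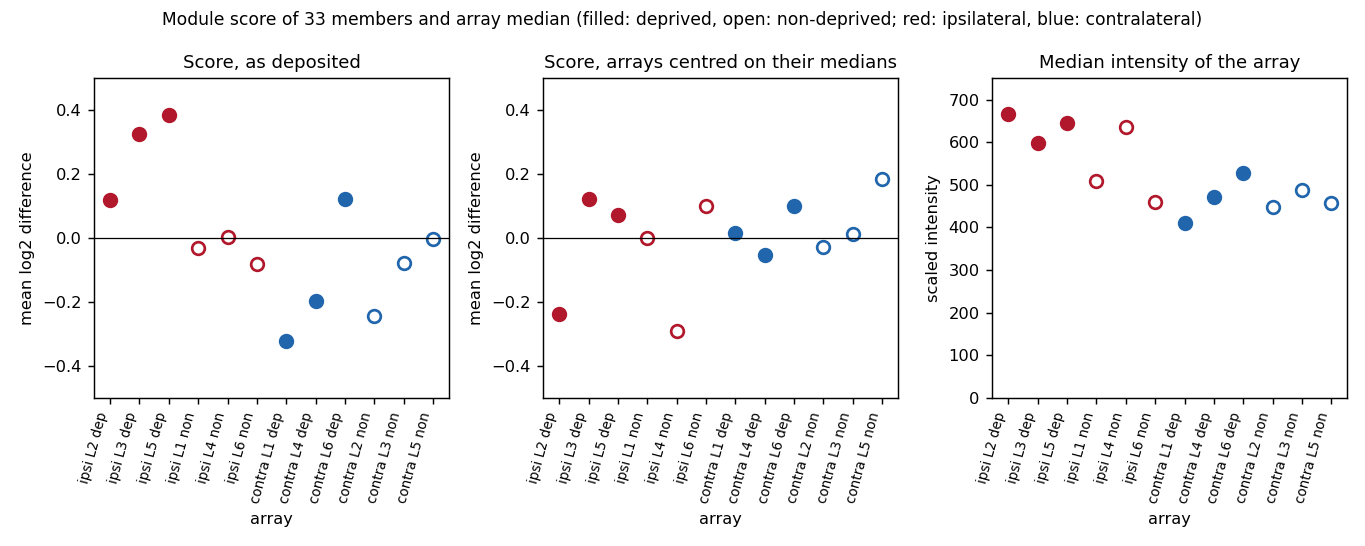
Module score of 33 genes on each of 12 arrays as deposited (left) and after each array was centred on its median (middle), in mean log2 difference, beside the median intensity of the array (right, from 0); red is ipsilateral, blue contralateral, filled deprived and open non-deprived. As deposited the score runs from -0.32 to 0.38 and is highest on the deprived ipsilateral layers 3 and 5, and after centring it runs from -0.29 to 0.19 in another order.

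The 5 probe sets of other genes whose log2 values followed the score most closely over the 12 arrays, among 9824 candidates, were those of NPC1, IKBKE, ZC3H7B, ATF3 and TMEM40. NPC1 had 3033, 3463 and 3766 in the deprived ipsilateral layers 2, 3 and 5, 2705, 2905 and 2599 in the non-deprived ipsilateral layers 1, 4 and 6, 2184, 2118 and 2772 in the deprived contralateral layers 1, 4 and 6, and 2121, 2253 and 2570 in the non-deprived contralateral layers 2, 3 and 5. None of the 5 was in the lists of microglia, complement or signal genes, and all arrays share their scaling, so likeness to the score is a description of these arrays alone.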

How the data were processed

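The values deposited by the authors were linear intensities, 1 for each of 22283 probe sets (human Affymetrix design) and array. Array software is not given in the sources used here. With 2%-trimmed means between 1500.45 and 1500.6, arrays were not rescaled. A floor was set at the pooled 20th percentile (110.8) before log2, and 0.0683% of the tested values lay under it. Probe sets with a mean at or above the median, without 68 controls, were tested (11105). On the whole array, 19065 probe sets named 1 gene, 1043 several and 2107 none. The fit (lmFit and eBayes with a trend, limma 3.58.1, R 4.3.3) held deprivation, cell class and hemisphere over 12 arrays, with 8 residual degrees of freedom, and each interaction was added in turn. Tests were two-sided, Benjamini-Hochberg adjusted over all probe sets, with a threshold of 0.05, and the fit of these 3 terms, not of the interactions, was tested on simulated data. The number of arrays limits the precision.

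The members and lists were chosen with earlier results of these data known, so no p over the members alone is given. Named genes were CX3CR1, CTSS, AIF1, the complement members, members past the threshold, the 3 of smallest p in each contrast and, from each other list, the gene of smallest p; genes named beyond this are given for their role or were chosen after their values were seen. Of the 35 symbols, 33 were in the macaque gene table. Coordinates are not given. The alternatives were other covariates, scalings, filters and floors, no trend, control ratios as covariates, subsets of samples and each array left out.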

Additional observations from a re-analysis of the deposited data

Results flagged for a closer look

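Within the deprived and the non-deprived group, the highest or lowest array was set against the others, on the log2 scale for 18 genes with values in every sample or named by a test, and for the module score, the array median and the GAPDH and ACTB ratios. This gave 44 checks, of which 6 found an array far from the rest of its group; chance alone gives about 1 in 20. All 6 were in the non-deprived group. CX3CR1 was 3410 in contralateral layer 5 against 4403 to 5022 in the other 5 samples. C1QB was 121.1 in ipsilateral layer 1 against 218.9 to 311.2. In ipsilateral layer 4, ALOX5AP was 158.4 against 650.7 to 1068, CD74 was 1055 against 422 to 564.2, and the array median was 637.1 against 447.9 to 509. The module score was -0.24 in contralateral layer 2 against -0.08 to 0.00.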

How the results depend on the processing

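With deprivation 0 members passed under 17 other settings and without any single array, and both interactions likewise gave 0. With cell class the count was 1 in all but the 6 ipsilateral samples alone (0). With hemisphere it was 0 under 14 other settings and 0 to 3 without single arrays. The median hemisphere change of the members was 0.0363 after median centring, and the ipsilateral minus contralateral difference in module score was 0.0351 with quantile normalization and -0.0778 after median centring, against 0.24 as deposited. The median interaction of deprivation with hemisphere was 0.212 after median centring, and that with cell class lay between -0.251 and 0.223 without single arrays. The median cell class change was -0.10 with the ACTB ratio as covariate. The median deprivation change was 0.395 in ipsilateral and -0.0781 in contralateral samples, where CTSS turned to -0.026. The cause was not tested. Deprived and non-deprived samples of the same layer number had correlations of deviations from their group means of -0.25 to -0.00. They came from opposite hemispheres, so these values also hold the hemisphere difference. Between residuals of the fit the correlations were -0.20 to 0.12. Whether the layer number pairs samples cannot be told from this. With layer number as a replicate block 0 members passed with deprivation and 0 with hemisphere. Cell class and the interaction with hemisphere are fixed by the layer and could not be fitted. Dim human probes on macaque RNA limit what can be said of the 15 genes below the filter.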
